A study of Mus musculus with 2 samples.

Results

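The embryonic intestine is an epithelial tube inside a sleeve of mesenchyme, and cells of these kinds join the exons of many of the same genes in different ways. Described here are 10 genes of that programme in mouse intestine at embryonic day 14.5. They comprise 6 RNA-binding splicing factors (Esrp1, Esrp2, Rbfox2, Mbnl1, Ptbp1 and Qk) and 4 genes with well-known epithelial and mesenchymal splice forms (Cd44, Ctnnd1, Enah and Fn1). They were chosen by symbol from 43346 measured genes, and all of their transcripts in the transcript tables, 135 of 103639, were taken. All samples form 1 group of 2 libraries, each of total RNA from the intestine of a B6NCrl strain embryo, with no treatment or altered allele named. The labels describe each as a single pup, collected on day 17 (replicate 1) or day 15 (replicate 2) of the same month, yet give 1 donor record and a pooled sex for both. RNA longer than 200 nucleotides was extracted with the Ambion mirVana kit, and 10 ng went into each library. With 1 group there was no contrast between conditions and no test. Values are given for each library or as the mean ± SD (n = 2), and the collection day and the embryo cannot be told apart.

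As background, the epithelial splicing regulatory proteins Esrp1 and Esrp2 are made in epithelia, where they favour epithelial exon choices. Rbfox2, Mbnl1, Ptbp1 and Qk are made in many cell types, and in cell culture each favours some of the exon choices of mesenchymal cells. All of these proteins bind short motifs in or beside an exon, and whether the exon is kept or skipped depends on where they bind. Their known targets include cell adhesion proteins, actin regulators and matrix proteins, whose epithelial and mesenchymal forms differ by a few cassette exons.

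The libraries held 34504419 and 34042802 estimated counts over all features in replicates 1 and 2. Markers of several cell types were found: 12 of 12 epithelial, 14 of 14 mesenchymal, 7 of 7 smooth muscle, 8 of 8 neural and glial, 5 of 5 endothelial and 5 of 5 macrophage and leukocyte genes reached 1 TPM (a transcript's share of all transcripts in a library, per unit of its length) in both libraries. The share over all protein-coding genes was 61.3%. These lists were made for cell types and not for an organ. Summed over its list, the epithelial markers held 2016 and 2176 TPM, led by Epcam, and the mesenchymal markers 3920 and 3702 TPM, led by Col3a1. The libraries differed in 2 ways that the labels do not give. Xist was at 77.2 TPM in replicate 1 and 0.060 TPM in replicate 2, while 3 Y-linked genes summed to 0 and 92.6 TPM, which goes against a pooled sex. The 6 pancreas markers summed to 3.72 TPM in replicate 1 and 1073 TPM in replicate 2, with Ctrb1, Ins2 and Amy2a5 at 0 in replicate 1. The 4 erythroid markers summed to 3355 and 4993 TPM. In bulk tissue, fewer cells of a type and less RNA per cell cannot be told apart.

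All 10 genes were detected, meaning at least 1 TPM in both libraries, against 34.2% of all genes and 61.3% of protein-coding genes. Their mean levels spanned 18.7-fold, and 9 of the 10 lay above the median of detected protein-coding genes, 18.4 TPM. Ptbp1, the polypyrimidine tract binding protein, was highest at 227 ± 1.12 TPM, above 95.6% of detected protein-coding genes. Mbnl1, a muscleblind protein, followed at 107 ± 2.64 TPM and Fn1, which encodes the matrix protein fibronectin, at 98.4 ± 11.2 TPM. The libraries' values of Mbnl1 and Fn1 overlapped, so these neighbours in the order did not differ beyond their spread. Ctnnd1, which encodes p120-catenin, stood apart below them at 49.2 ± 2.79 TPM.

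The epithelial factors were in the lower part of this order. Esrp1 was at 24.5 TPM in replicate 1 and 24.6 TPM in replicate 2, overlapping Rbfox2 at 25.7 and 24.4 TPM. Esrp2 was at 17.6 and 19.9 TPM, overlapping Enah, an actin regulator of the Ena/VASP family, at 18.8 and 19.1 TPM. Qk, the quaking RNA-binding protein, was at 22.3 and 17.8 TPM, which overlapped Enah and lay below both Esrp1 values. Cd44, the hyaluronan receptor, was lowest at 13.5 and 10.7 TPM and overlapped no other member.

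**Figure D1:**
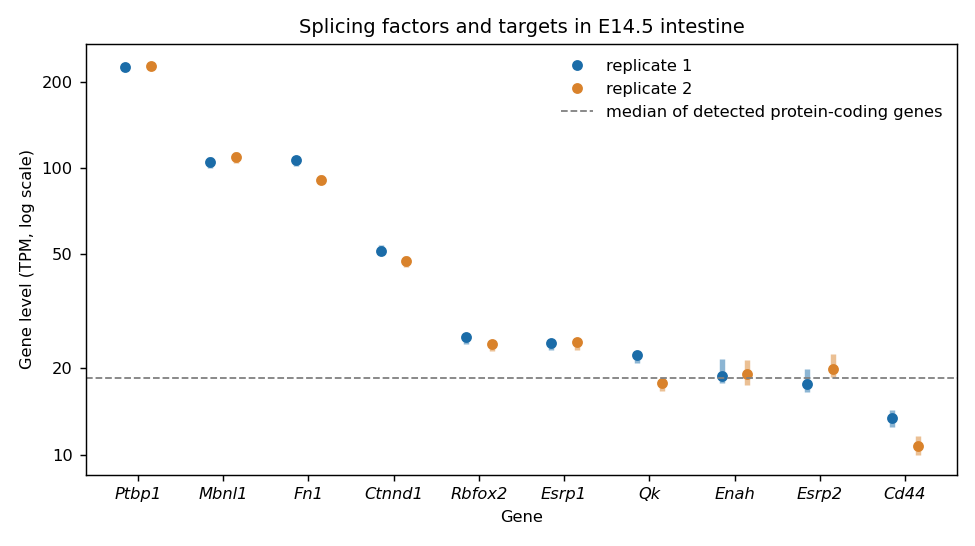
Gene level in TPM (log scale) of the 10 genes in each library, with the authors' deposited intervals as thick bars and the median of detected protein-coding genes as a dashed line. Ptbp1 stands highest at 227 TPM on average, and Esrp1 and Esrp2 average 24.6 and 18.7 TPM. The intervals of Qk, Cd44, Ctnnd1 and Fn1 do not overlap between the libraries.

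None of the 10 differed between the libraries by the rule used here, which asks for a mean of at least 5 TPM, a difference of at least 1 in log2(TPM + 1) and deposited intervals that do not overlap; 0.495% of 11324 genes met it. The absolute difference in log2(TPM + 1) was 0.01 to 0.32 for the members with a median of 0.09. Over those 11324 genes its median was 0.11 and its 95th percentile 0.38. By the overlap of intervals alone, which cover estimation within a library and not embryos, 4 of the 10 were apart, against 25.2% of those genes. These were Qk, Cd44, Ctnnd1 and Fn1, all lower in replicate 2, with differences from -0.11 (Ctnnd1) to -0.32 (Qk). With the deposited scaling 5 members were higher and 5 lower in replicate 2, but scaled to the spike-ins 1 was higher and 9 were lower, since Esrp1, Mbnl1, Ptbp1 and Enah changed sign. Summed pancreas and erythroid markers were higher in replicate 2 and summed mesenchymal markers lower, as given above, and their part in these differences was not tested.

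Other members of the factors' families were present beside them. Of 41 further splicing regulators 38 were detected and 0 differed between the libraries. The neural Rbfox3 (0.880 and 1.30 TPM), the muscle factor Rbm20 (0.600 and 0.480 TPM) and the neural Nova2 (0.880 and 0.520 TPM) fell short of the threshold. Rbfox2, at 25.0 ± 0.919 TPM, was far above its paralogue Rbfox1 at 1.26 ± 0.106 TPM. Mbnl1 was above Mbnl2 at 49.9 ± 1.95 TPM and Mbnl3 at 9.66 ± 1.26 TPM. Ptbp1 was above Ptbp3 at 56.4 ± 0.361 TPM and Ptbp2 at 37.3 ± 4.58 TPM, the paralogue best known from neurons. All 21 other genes of a list with epithelial or mesenchymal splice forms were detected as well, and 0 of them differed between the libraries.

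At the level of transcripts, 45 of the 135 (33.3%) reached 1 TPM in both libraries, against 28.4% of all transcripts and 45.9% of the transcripts of detected genes. A further 40 were at 0 TPM in both. The same transcript led in both libraries for 10 of the 10 genes, against 93.1% of 7999 genes with several transcripts. The leading transcript took a median of 54.4% of its gene's TPM (its isoform percent) over the members and 70.0% over those genes. The largest change of any isoform percent between the libraries had a median of 4.88 points over the members and 4.47 points over those genes. In Qk and Fn1 the leading transcript is not annotated as protein-coding, which held for 7.63% of 7823 protein-coding genes. These types come from a later annotation than the quantification, and in it the leading Qk transcript has another length.

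**Figure D2:**
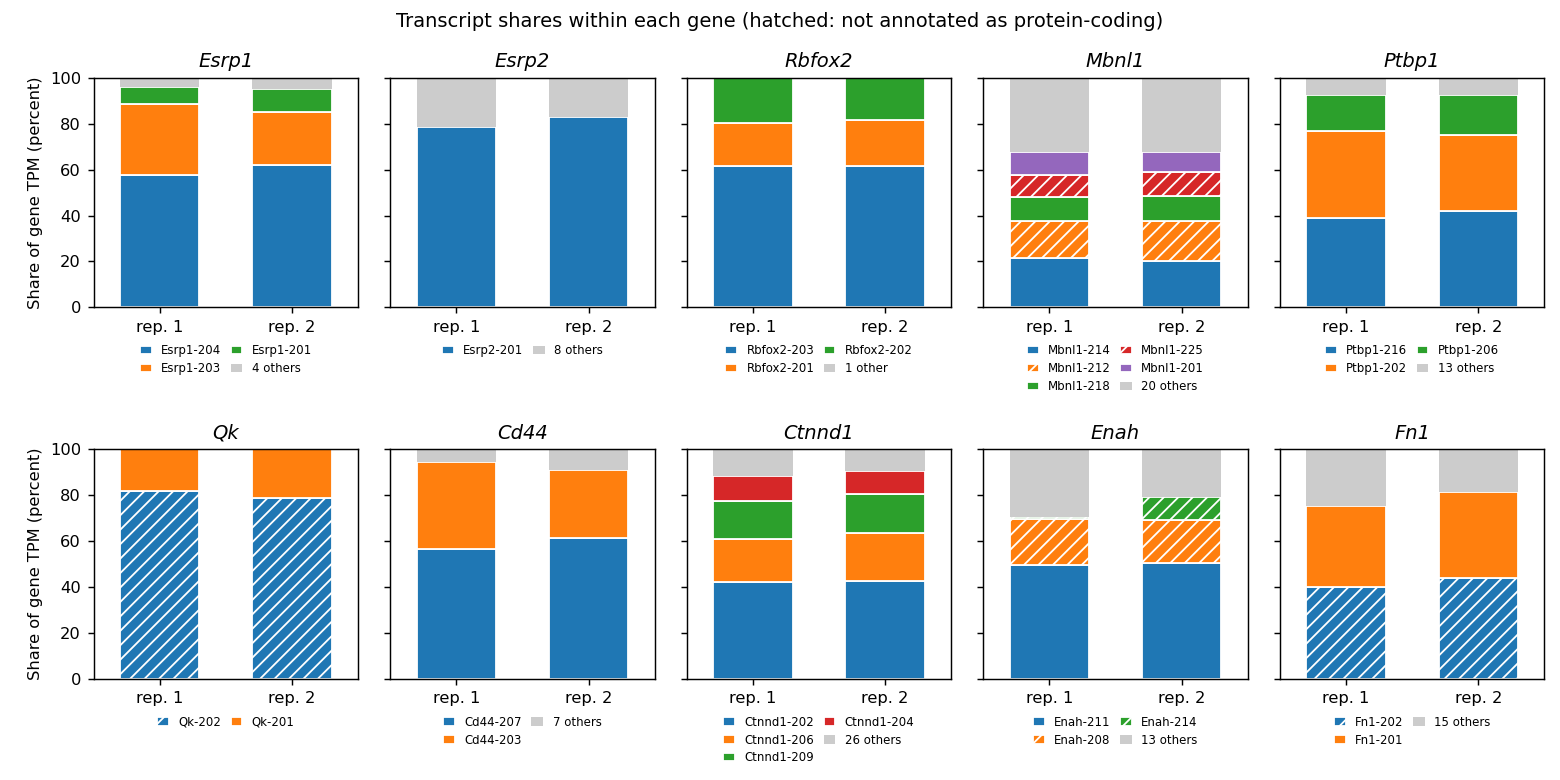
Share of each gene's TPM, in percent, taken by its transcripts in replicates 1 and 2; transcripts under 10% in both libraries are pooled in grey, and hatching marks transcripts not annotated as protein-coding. Blocks are stacked in the same order in both libraries, with the highest mean TPM lowest, and Qk and Fn1 lead with hatched transcripts. Hatching follows a later annotation, in which the Qk transcripts have other lengths.

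Esrp1 (chr4:11331933-11386783 on GRCm38) is known in the mouse to choose between neighbouring 5′ splice sites in 1 of its own exons, giving proteins that differ by 4 residues. Its exon of 199 or 187 bases shows that choice, and the 12 added bases are in capitals between 10 bases of either side in the order of the transcript Esrp1-203 (minus strand, exon at chr4:11357460-11357658):
Esrp1 long exon end: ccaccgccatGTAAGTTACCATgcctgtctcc
The capitals open with the letters GTAAGT, which is where the shorter exon is cut. Transcripts with the 12 bases made up 31.3% and 23.2% of the TPM of transcripts with either exon end in replicates 1 and 2. They were the single transcript Esrp1-203, of 681 residues, at 7.62 and 5.66 TPM, whose deposited intervals of 5.99 to 8.80 and 4.38 to 6.58 TPM overlapped. The short exon belonged to the leading transcript Esrp1-204, of 604 residues, which took 57.5% and 62.2% of the gene and lacks exons of 151 and 110 bases downstream. Those exons were included at 38.7% and 33.3% (151 bases) and at 34.7% and 27.2% (110 bases). Esrp1-201, of 659 residues, took 7.35% and 10.0%. Thus most Esrp1 RNA was assigned to a form without these downstream exons in both libraries.

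Esrp2 (chr8:106130319-106136974) was simpler. Its transcript Esrp2-201, which encodes 717 residues, took 78.6% and 83.0% at 13.8 and 16.5 TPM, and it was the only 1 of 9 that was detected. The other 8 stayed at or below 5.54% each.

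Rbfox2 (chr15:77078990-77307004) encodes a protein that binds the letters GCATG. It carries a pair of mutually exclusive exons, of 40 bases in a form known from brain and 43 bases in a form known from muscle. The brain-type exon (chr15:77094451-77094490, minus strand) is given in capitals within Rbfox2-203:
Rbfox2 brain-type exon: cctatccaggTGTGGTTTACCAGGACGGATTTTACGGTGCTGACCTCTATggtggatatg
Rbfox2-203, which holds these 40 bases, took 61.6% and 61.5% of Rbfox2 TPM. Rbfox2-201 took 18.8% and 20.2%, and Rbfox2-202 took 19.7% and 18.3%. Of the 15 Rbfox2 transcripts of the annotation used here 4 were analysed, and 3 of the 4, these last included, have another length in it than in the tables. Their exons are therefore uncertain, and the inclusion of 61.5% in both libraries computed for the 40-base exon rests on that match. The 43-base exon lies in 2 other annotated transcripts and was not analysed here.

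Mbnl1 (chr3:60472830-60629750) encodes a protein that moves many exons from fetal to adult use in muscle. Among its own exons, exon 5 favours a nuclear location of the protein and is repressed by Mbnl1 itself, and exon 7 bears on its binding to other Mbnl1 molecules. Both are shown in capitals with 10 flanking bases, exon 5 (chr3:60614683-60614736, plus strand) from Mbnl1-214 and exon 7 (chr3:60621423-60621458) from Mbnl1-201:
Mbnl1 exon 5: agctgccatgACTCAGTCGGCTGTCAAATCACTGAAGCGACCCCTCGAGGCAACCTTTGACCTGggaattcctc
Mbnl1 exon 7: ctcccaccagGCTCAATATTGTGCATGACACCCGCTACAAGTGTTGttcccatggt
The 54 bases of exon 5 were included at 49.2% in replicate 1 and 47.5% in replicate 2, and the 36 bases of exon 7 at 30.3% and 29.8%. Inclusion here means the TPM of transcripts that hold the exon over that of all transcripts with exons on both sides of it. Among the named transcripts the exons did not occur together: Mbnl1-214 (387 residues; 21.7% and 20.2%) and Mbnl1-218 (347 residues; 10.6% and 10.96%) hold exon 5 and skip exon 7, while Mbnl1-201 (381 residues; 10.2% and 8.48%) holds exon 7 and skips exon 5. Mbnl1 had the most detected transcripts of the 10 genes, 12 of 25. Of its TPM, 67.7% and 65.6% lay in protein-coding transcripts. Over these alone exon 5 came to 63.9% and 63.5% and exon 7 to 39.2% and 39.8%, and the processed transcript Mbnl1-212, at 15.8% and 17.3% of the gene, skips both. Mbnl1-225, annotated as a retained intron, took 9.51% and 10.65% and spans neither exon.

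Ptbp1 (chr10:79854427-79864771) represses many exons, and in mammals skipping of its own exon 9 lowers that repressive activity. Exon 9 (chr10:79860117-79860194, plus strand) is in capitals within Ptbp1-216:
Ptbp1 exon 9: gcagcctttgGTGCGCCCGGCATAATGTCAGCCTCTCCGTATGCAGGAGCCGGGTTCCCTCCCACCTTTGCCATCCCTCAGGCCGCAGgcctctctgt
These 78 bases hold 65.4% G and C, the highest share among the alternative exons shown here. They were included at 43.1% and 46.4%. Ptbp1-216, with exon 9 and 555 residues, was at 87.4 and 95.4 TPM. The forms without it were Ptbp1-202, of 489 residues, at 86.0 and 75.4 TPM, and Ptbp1-206, of 529 residues, at 35.5 and 39.7 TPM. Ptbp1-216 led by 38.7% to 38.1% over Ptbp1-202 in replicate 1 and by 42.0% to 33.2% in replicate 2. In replicate 1 the deposited intervals of both, 76.9 to 93.3 and 77.0 to 95.1 TPM, almost coincided, so their order there was not resolved. A 34-base exon whose skipping shifts the reading frame, known in human cells as a point of Ptbp1 autoregulation, was included at 98.4% and 98.8%. The transcripts that skip it are annotated for nonsense-mediated decay, and of these only Ptbp1-207 was above 0, at 3.37 and 2.55 TPM. Its deposited intervals were wide, 1.31e-04 to 5.16 and 7.67e-05 to 3.88 TPM.

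Qk (chr17:10202601-10319854) encodes proteins that share an RNA-binding part and differ at their ends through the choice of last exons. The proteins Qk-5, Qk-6 and Qk-7 have 341, 319 and 325 residues in the annotation, and Qk-5 is the nuclear one. Of the 6 annotated transcripts 2 were analysed, both with other lengths in the tables than in this annotation. Qk-202 took 81.8% and 78.7% of Qk TPM, at 18.3 and 14.0 TPM. In the later annotation it has the 319-residue frame, is marked for nonsense-mediated decay and ends in an exon of the 341-residue form. Qk-201, with the 325-residue frame, took 18.2% and 21.3%, at 4.06 and 3.78 TPM. Since the 341-residue transcript was not analysed here, these shares do not give the proportions of the 3 proteins.

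Of the alternative exons of all members, 20 cassette exons carry names of their own. Of these 13 lay between 10% and 90% inclusion in both libraries, against 30.0% of 11993 alternative exons of expressed genes. The other 7 lay under 10% in both and 0 lay over 90%. The 20 are not independent, since 10 are variable exons of Cd44. Of those, v5, v6, v8, v9 and v10 rest mainly on 1 transcript, Cd44-207, and v1 to v4 were listed at 0. These 20 include exons 5 and 7 of Mbnl1, exon 9 of Ptbp1 and the INV exon of Enah, the last added after its values were seen. They leave out the 34-base exon of Ptbp1 and the 40-base exon of Rbfox2 given above, so these counts depend on the choice of exons. All 20 have a length that is a multiple of 3. Their inclusion differed between the libraries by a median of 0.877 points, and by 1.63 points for the 13 in the middle range. Over all alternative exons the median was 1.15 points, and 3.64 points in the middle range, where the 95th percentile was 15.2 points. The largest difference among the 20 was 8.71 points, for Cd44 v10.

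**Figure D3:**
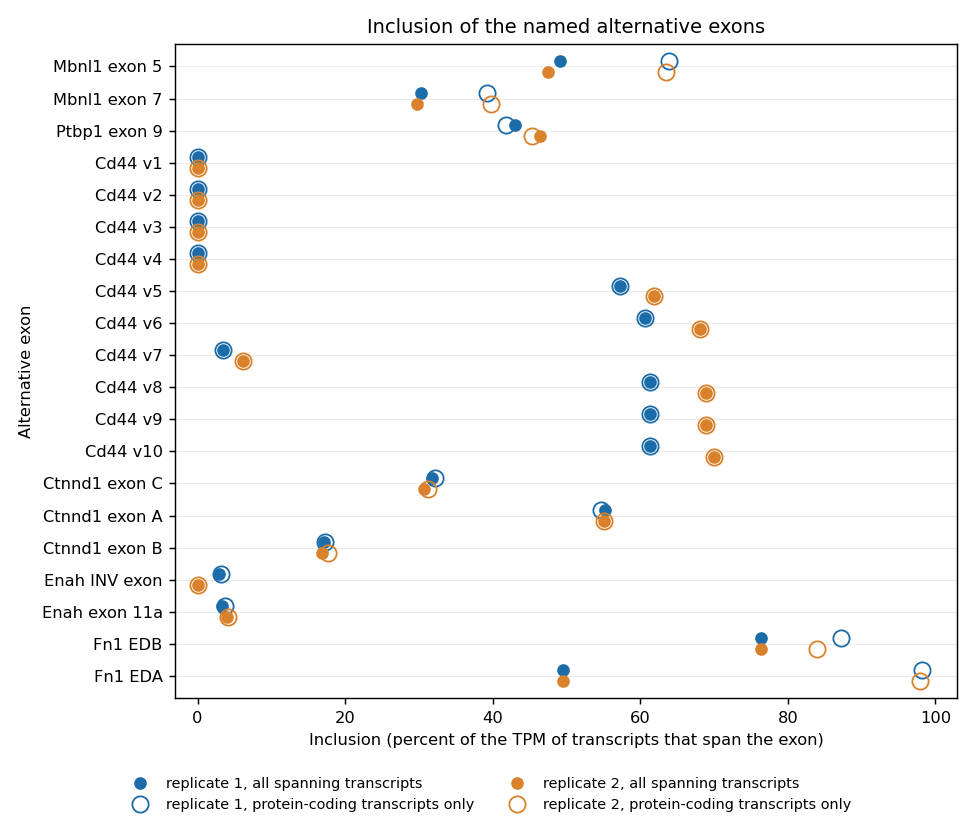
Inclusion of the 20 named exons in percent, by library; filled points use all transcripts that span the exon and open circles only protein-coding ones. Fn1 EDA stands at 98.1% and 98.0% with protein-coding transcripts, against 49.5% with all of them, Mbnl1 exons 5 and 7 and Fn1 EDB also stand higher, and the rest lie close together.

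Cd44 (chr2:102811141-102901665) has 10 variable exons, v1 to v10, in the stem outside the membrane. The standard form without any of them is common in mesenchymal and blood cells, and forms with several of them are typical of epithelia, where Esrp1 favours their inclusion. The exons v5 (chr2:102842261-102842377) and v6 (chr2:102839358-102839477), neighbours on the minus strand, are shown in capitals within Cd44-207:
Cd44 v5: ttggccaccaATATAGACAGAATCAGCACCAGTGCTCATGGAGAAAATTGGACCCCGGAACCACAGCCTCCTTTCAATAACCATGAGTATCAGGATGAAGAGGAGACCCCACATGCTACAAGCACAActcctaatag
Cd44 v6: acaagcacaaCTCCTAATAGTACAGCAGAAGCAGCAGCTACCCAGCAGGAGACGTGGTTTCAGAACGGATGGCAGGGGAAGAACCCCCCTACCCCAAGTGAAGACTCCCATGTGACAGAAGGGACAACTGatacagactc
Cd44-207, with v5, v6, v8, v9 and v10 and 577 residues, led with 56.4% and 61.4% of Cd44 TPM, at 7.59 and 6.58 TPM. The standard form Cd44-203, with 0 variable exons and 365 residues, took 38.1% and 29.8%, at 5.13 and 3.19 TPM. Its deposited intervals, 3.95 to 6.10 and 2.23 to 4.06 TPM, overlapped narrowly. These 2 were the only Cd44 transcripts detected, so most of the gene's TPM was assigned to a form with 5 variable exons and a form with none. They also differ outside these exons: Cd44-207 has 5045 bases, 1731 of them coding, and Cd44-203 has 2848, 1095 of them coding. Reads in the noncoding sequence and in the variable exons cannot be told apart here, so the split between the forms rests on both.

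The variable exons fell into blocks. Exons v8, v9 and v10 were included at 61.3% each in replicate 1 and at 68.9%, 68.9% and 70.0% in replicate 2. Exon v6 was included at 60.7% and 68.0% and v5 at 57.2% and 61.8%. By contrast v7 was at 3.47% and 6.20%, carried by Cd44-202 at 0.460 and 0.660 TPM, and v1, v2, v3 and v4 were listed at 0 in both. The transcripts that hold v1 to v4 number 1 for v1, v2 and v3 and 2 for v4. The estimates for v5 to v10 are tied, because they rest on 1 abundant transcript that holds 5 of them. By expected counts instead of TPM, which weights the longer Cd44-207 more, v5 came to 70.4% and 74.2%.

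Cd44's named partners were at these levels: Ezr at 131 ± 8.86 TPM, Rdx at 75.8 ± 9.23 TPM and Msn at 66.1 ± 4.48 TPM, which encode the ezrin, radixin and moesin anchors of its tail. The genes for the synthases of its ligand hyaluronan were low, with Has2 at 1.02 and 1.01 TPM and Has1 and Has3 under 1 TPM in both libraries.

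Ctnnd1 (chr2:84600071-84650765) is spliced at both ends of the protein. Use of its first start codon gives isoform 1, known from mesenchymal cells, and use of a start 101 codons downstream gives isoform 3, known from epithelia. Further along lie exon C (chr2:84612532-84612549), exon A (chr2:84605184-84605246) and exon B (chr2:84603188-84603274), of which B carries a nuclear export signal. They are shown in capitals with 10 flanking bases, on the minus strand, A from Ctnnd1-206 and the others from Ctnnd1-209:
Ctnnd1 exon C: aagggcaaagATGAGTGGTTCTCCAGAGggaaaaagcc
Ctnnd1 exon A: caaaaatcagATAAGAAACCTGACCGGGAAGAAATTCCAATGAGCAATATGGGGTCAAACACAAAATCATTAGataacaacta
Ctnnd1 exon B: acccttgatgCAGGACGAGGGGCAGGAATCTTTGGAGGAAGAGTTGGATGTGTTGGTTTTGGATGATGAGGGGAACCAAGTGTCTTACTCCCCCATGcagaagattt
By start codon, transcripts with the first start took 47.1% and 47.5% of the TPM of the coding transcripts compared, and those with the isoform 3 start took 33.1% and 30.7%. The 7 transcripts of the start after 54 codons (isoform 2) were listed at 0 TPM in both. By the posterior mean they held 4.41% and 4.54%. The start after 323 codons (isoform 4) had 19.2% and 21.9%, all from Ctnnd1-206.

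The cassette exons of Ctnnd1 differed in use by a wide margin and hardly between libraries. Exon A was included at 55.3% and 55.2%, exon C at 31.8% and 30.7% and exon B at 17.1% and 16.9%. Ctnnd1-202, with the first start and without A, B and C, led with 42.1% and 42.7% of the gene, at 21.6 and 20.2 TPM. By the posterior mean its share was 36.8% and 36.1%, and its TPM in replicate 2 lay above its deposited interval of 14.7 to 19.3 TPM. Ctnnd1-209, with the isoform 3 start and all 3 exons, took 16.4% and 16.9%, and Ctnnd1-204, with that start, A and C, took 10.96% and 10.3%. By TPM exon B thus rested almost wholly on Ctnnd1-209, whose estimate was weak: its deposited interval in replicate 1 ran from 1.87e-05 to 7.97 TPM, and its TPM of 8.40 lay outside it. In replicate 2 its TPM of 7.97 also lay outside its interval, 0.142 to 6.98 TPM. By the posterior mean its share was 8.42% and 8.98%, while inclusion of exon B over all transcripts that hold it was 17.4% and 17.1%. Of the partners, the cadherin genes Cdh1 (epithelial) and Cdh2 (neural and mesenchymal) were at 115 ± 5.52 and 32.2 ± 2.74 TPM, and the catenin gene Ctnnb1 was at 394 ± 22.1 TPM.

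**Figure D4:**
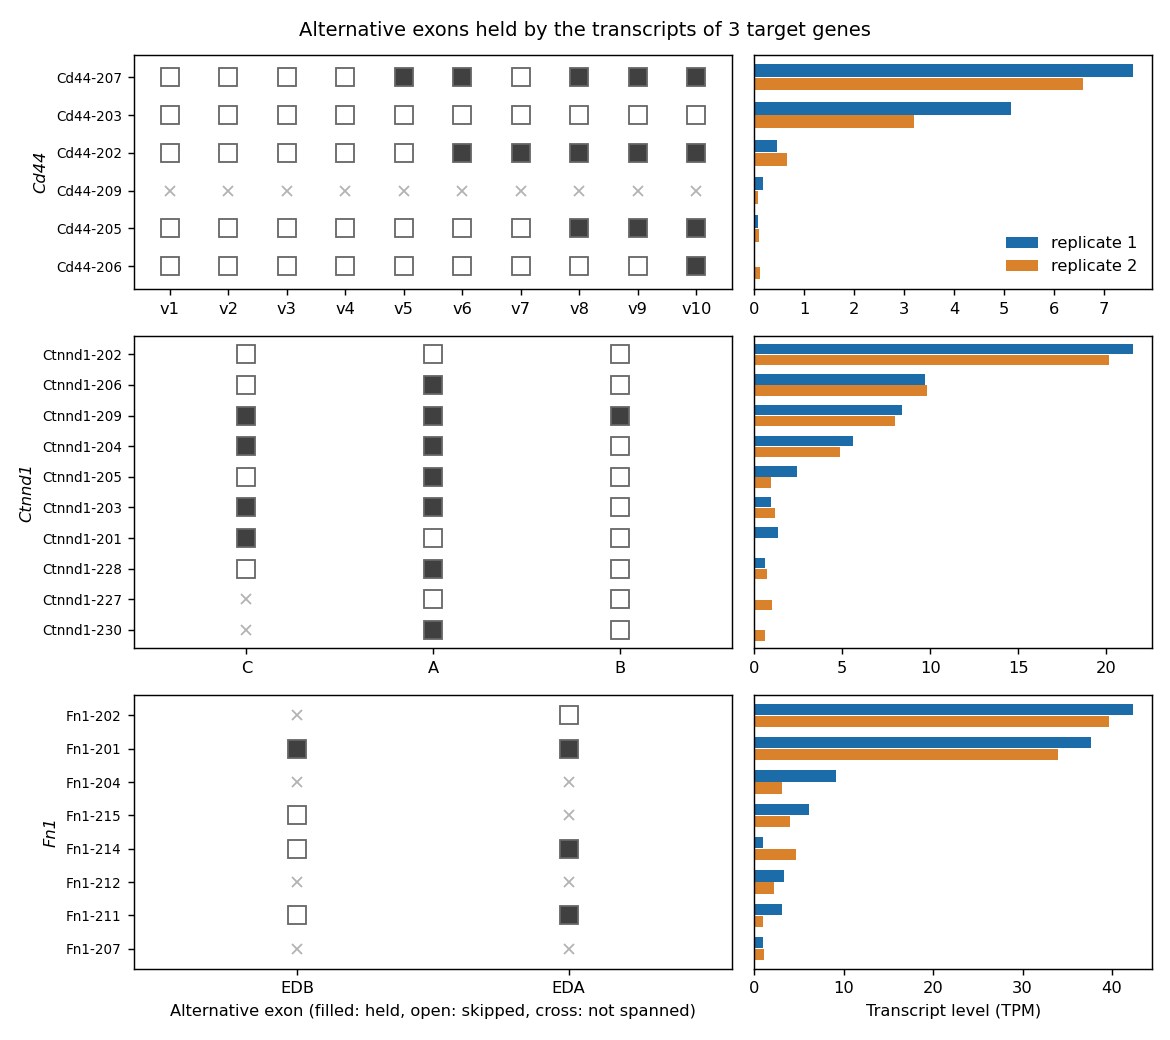
Alternative exons held (filled), skipped (open) or not spanned (cross) by the more abundant transcripts of Cd44, Ctnnd1 and Fn1, with each transcript's TPM in both libraries as bars. Cd44-207 with 5 variable exons and Cd44-203 with none lead Cd44, Ctnnd1-202 without C, A and B leads Ctnnd1, and Fn1-202, which skips EDA and does not reach EDB, leads Fn1.

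Enah (chr1:181896384-182019990) encodes Mena, which lengthens actin filaments at the cell edge. Exon 11a marks its epithelial form and depends on Esrp1 and Esrp2 in epithelial cells, and the INV exon is known from invasive tumour cells. Exon 11a (chr1:181911597-181911659, minus strand) is in capitals within Enah-202:
Enah exon 11a: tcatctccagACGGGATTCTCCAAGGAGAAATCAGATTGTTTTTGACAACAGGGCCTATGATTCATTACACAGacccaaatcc
These 63 bases were included at only 3.38% and 4.0% by TPM, and at 1.26% and 1.35% by expected counts. They rested on Enah-202, with 31.5 and 35.1 expected counts. Enah-202 has 3572 bases, of which 1686 are coding, and the leading transcript Enah-211 has 11229, of which 1623 are coding. These transcripts thus differ in noncoding sequence as well as in exon 11a. The reads behind each cannot be told apart here, so the low share is not a measure of exon 11a alone. The INV exon, chosen after its values were seen, was at 2.97% by TPM and 0.855% by expected counts in replicate 1 and at 0 by both in replicate 2, from 21.3 and 0 expected counts. Enah-211, which has neither and encodes 541 residues, led with 49.4% and 50.3% of the gene, at 9.28 and 9.62 TPM. Transcripts with a retained intron came next: Enah-208 took 20.3% and 18.7%, and Enah-214 took 0.950% and 10.4%, the largest change of an isoform percent among the members. Enah-214 rested on 2.64 and 29.9 expected counts. The related genes Vasp and Evl were at 61.8 ± 0.629 and 18.8 ± 0.141 TPM.

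Fn1 (chr1:71585520-71653200) encodes fibronectin, whose splice forms vary in the extra domains EDB and EDA, each 1 exon, and in the V region. Embryonic and mesenchymal fibronectin is known to hold EDB and EDA, and plasma fibronectin from the liver lacks them. EDB (chr1:71613763-71614035) and EDA (chr1:71603660-71603929) are shown in capitals within Fn1-201 on the minus strand, as the exons on which the estimates below turn:
Fn1 EDB: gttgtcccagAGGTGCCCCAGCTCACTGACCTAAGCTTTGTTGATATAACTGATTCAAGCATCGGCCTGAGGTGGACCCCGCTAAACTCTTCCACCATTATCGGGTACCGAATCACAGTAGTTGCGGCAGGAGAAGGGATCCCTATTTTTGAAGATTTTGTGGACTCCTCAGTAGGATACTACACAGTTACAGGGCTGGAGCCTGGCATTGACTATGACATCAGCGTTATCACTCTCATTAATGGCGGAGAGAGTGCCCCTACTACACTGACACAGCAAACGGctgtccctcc
Fn1 EDA: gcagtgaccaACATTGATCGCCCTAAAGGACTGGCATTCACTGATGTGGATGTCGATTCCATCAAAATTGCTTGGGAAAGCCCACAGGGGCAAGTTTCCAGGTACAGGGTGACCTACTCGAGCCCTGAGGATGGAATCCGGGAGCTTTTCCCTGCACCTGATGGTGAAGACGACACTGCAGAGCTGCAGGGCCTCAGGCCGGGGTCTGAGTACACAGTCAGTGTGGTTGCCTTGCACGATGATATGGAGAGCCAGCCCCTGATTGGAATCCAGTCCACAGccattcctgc
The 273 bases of EDB were included at 76.4% in both libraries. The 270 bases of EDA came to 49.5% in both over all transcripts that span the exon, but to 98.1% and 98.0% over protein-coding ones. A single transcript makes that gap, since leaving out Fn1-202 alone also gave 98.1% and 98.0%.

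Fn1-202 led the gene with 39.9% and 43.8% of its TPM, at 42.4 and 39.6 TPM, ahead of the full-length Fn1-201 at 37.7 and 33.97 TPM. It is annotated as a retained intron and has 17 exons and 4022 bases, against 46 exons and 8315 bases in Fn1-201. It starts in the last part of the gene, lacks EDA and keeps 1 intron beside the V region; 626 of its bases are not in Fn1-201. It thus differs from Fn1-201 by its later start, by the intron and by EDA at once. The tables give 1 value for the whole transcript, so the reads behind each of these features cannot be told apart, and whether EDA skipping had reads of its own was not tested. Over protein-coding transcripts alone EDB came to 87.2% and 84.0%.

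In the V region, which holds a site for integrins on white blood cells, transcripts with all 120 residues took 91.4% and 96.7% of the TPM of the coding transcripts compared. Those with 95 residues took 7.17% and 2.42%, and those without it 1.41% and 0.915%. The longest form thus led in both libraries. Transcripts with 95 residues held 3.10 and 0.98 TPM, and those without the region 0.61 and 0.37 TPM. The EDB, EDA and V shares are tied and are not separate results. EDB is held by Fn1-201 alone, which also holds EDA and the 120 residues, and the transcripts with 95 residues or none all skip EDB. Of 5 receptor genes of fibronectin all were detected, with Itgb1 at 249 ± 14.3 TPM and Itga5, its partner in the main fibronectin receptor, at 50.7 ± 2.60 TPM.

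Fgfr2, a growth factor receptor gene that is no member, gave a further view of the same kind of choice, since its IIIb exon is used in epithelia and its IIIc exon in mesenchyme. The gene was at 91.2 ± 8.12 TPM, with 96.92 TPM in replicate 1 and 85.44 TPM in replicate 2. Transcripts with IIIb (148 bases) held 16.17 and 15.03 TPM, and those with IIIc held 28.99 and 22.88 TPM. Most of the gene's TPM thus lay in transcripts counted as neither kind. Of the TPM of both kinds IIIb took 35.8% and 39.6%, and of their expected counts 26.8% and 28.9%. Over transcripts whose length matched the annotation, a choice made after its values were seen, IIIb came to 21.4% and 28.3% by TPM. Over these transcripts expected counts gave 13.1% and 17.7% for IIIb. Both forms were thus assigned TPM, as were both kinds of form in Cd44 and Ctnnd1. Little Enah TPM was assigned to Enah-202, the transcript with exon 11a. The limits given above for the Cd44 and Enah transcripts hold for this comparison too.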

How the data were processed

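Total RNA-seq of 2 libraries of 1 group was used. The expected counts per gene and per transcript were deposited by the authors, and they need not be whole, since reads shared by features are split. Per the deposited notes, reads were aligned to mm10 and quantified library by library with GENCODE M4. Which tool did so, and whether strand was used, is not given in the sources used here. The authors scaled the TPM of a library over every feature, including 96 spike-ins, which took 9.77% and 10.4%, and 26248 features with numeric identifiers; these were left out of gene counts. The isoform percent (share of a transcript in its gene's TPM) was also deposited by the authors. The deposited interval bounds were taken as scores; they go with a posterior mean, need not contain the TPM, and their level, taken as 95%, is not in the headers.

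Symbols, exons, transcript types and sequences came from GENCODE M21 on GRCm38, the assembly of mm10, but a later annotation. Of 43346 gene identifiers 42462 matched, and 5 of 135 member transcripts had another length there. Inclusion of an exon was the TPM of transcripts holding it over that of all transcripts with exons on both sides; transcripts with other ends of that exon were left out, which touched 0 of the 20 named exons. All members were named, and their transcripts where the isoform percent was at least 10 in a library. Named exons were identified by order and length, except the INV exon of Enah, added after its values were seen. The further genes named were the 3 highest of a list, those under 1 TPM, and family members or partners. Members and lists were chosen with earlier results of these data known. With 1 group of 2 embryos there was no test, the difference rule is one of size, and the intervals cover estimation within a library only.

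Scaling alternatives used TMM factors (edgeR 4.0.16), size factors (DESeq2 1.42.0) on rounded expected counts, and spike-ins. Tables were made with Python 3.11.15 and pandas 2.3.3. The inclusion rule was checked on set values and the difference rule on simulated counts. Neither check covered the assignment of reads to transcripts or the deposited intervals.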

Additional observations from a re-analysis of the deposited data

How the results depend on the processing

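All 10 genes stayed detected at 5 TPM, at 10 expected counts and in each library alone, and 0 differed between libraries under a pseudocount of 0.1, TMM, DESeq2 or spike-in scaling or no filter on low values. These scalings shifted replicate 2 by 0.05, 0.05 and -0.08 in log2. The median level of the members, 24.8 TPM, was 32.5 TPM when rescaled to nuclear protein-coding genes and 24.4 TPM by posterior mean, and 24.5 to 25.1 TPM with 1 library left out. Detected transcripts numbered 23 at 5 TPM and 56 at 0.5 TPM, and 49 to 53 with 1 library left out. The leading transcript was shared by 10 genes over protein-coding transcripts and by 9 by posterior mean. Exons at 10% to 90% inclusion numbered 13 by expected counts, by posterior mean and in each library alone, and 12 over protein-coding transcripts, where Fn1 EDA left the range. Of the 20 exons, 13 moved by more than the spread between libraries by expected counts, 10 by posterior mean and 6 over protein-coding transcripts. The 2 alternatives added after the data were seen were Fn1 EDA without Fn1-202 and Fgfr2 over matching transcripts. Searches for motifs in the introns beside the exons were not run, because no genome sequence was used here. Transcripts not analysed here, and structures that changed between annotations (Rbfox2, Qk), limit the shares, and low counts limit Enah 11a and the INV exon. No paired analysis was possible because there is only 1 group.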
